A study of Mus musculus with 20 samples.

Results

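Fezf2, Tbr1, Bcl11b, Neurod6, Mef2c, Cux2, Etv1 and Foxp2 encode transcription factors that are used to mark classes of excitatory projection neurons in the forebrain. The 8 genes were taken by symbol from the 23412 gene symbols measured in 2 tissues, and all 8 were found in both. RNA of mouse hippocampus and amygdala, both taken at postnatal day 21, was measured in 20 libraries. Each tissue had 4 control libraries, 3 libraries with loss of the nuclear receptor corepressor NCoR1 (NCoR1-KO) and 3 with loss of the related corepressor SMRT (SMRT-KO). The knockouts came from a cross of Snap25-IRES2-cre mice, in which Cre is made in neurons generally, with mice that carry floxed alleles of NCoR1 or SMRT. The labels give the control animals no allele, so whether they carried Cre or a floxed allele is not known here. Nor do they tie each library to an animal of its own, and p-values then measure only the spread between these samples, part of which may be technical. The RNA came from whole tissue, in which neurons of every class and non-neuronal cells are mixed.

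Projection neurons of the cortex, hippocampus and basolateral amygdala are glutamatergic cells that send axons out of their home region. Their classes are set up by transcription factors that act in combination, often by repressing the programme of a neighbouring class. Fezf2 is a zinc finger factor that specifies subcerebral neurons of deep cortical layers, and Bcl11b (CTIP2) acts downstream of it. Bcl11b is also made in dentate granule cells, CA1 pyramidal cells and striatal projection neurons. Tbr1 is a T-box factor of corticothalamic and other early-born excitatory neurons. Neurod6 (NEX) is a basic helix-loop-helix factor of postmitotic pyramidal neurons. Mef2c is a MADS-box factor that responds to neuronal activity and limits synapse number. Cux2 is a homeodomain factor of upper-layer neurons, Etv1 (ER81) an ETS factor of layer 5 neurons, and Foxp2 a forkhead factor of layer 6 neurons that is also abundant in striatal projection neurons, intercalated amygdala cells and parts of the thalamus. NCoR1 and SMRT bridge nuclear receptors and other repressors to histone deacetylases.

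The genes differ widely in their genomic extent. On GRCm38 (mm10), with the GENCODE M21 annotation, Neurod6 spans 3442 bp at chr6:55677822-55681263 and has 2 exons in its longest coding transcript. Fezf2 spans 6096 bp at chr14:12342094-12348189, and Tbr1 11185 bp at chr2:61802930-61814114. Etv1 covers chr12:38779380-38870484 and Bcl11b chr12:107910403-108003602. Mef2c extends over 163047 bp at chr13:83504034-83667080 and has 31 annotated transcripts, Cux2 over 193737 bp at chr5:121856366-122050102 and Foxp2 over 540629 bp at chr6:14901349-15441977. The noncoding genes Gm3970 and Gm15637 lie on the strand opposite to Cux2, and Gm25470 lies within Foxp2 on the same strand. Reads in the overlap with Gm25470 could be assigned to either gene whatever the strand setting of the counting. For the overlaps with Cux2 this depends on that setting, which the sources used here do not give.

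Promoter windows, from 250 bases before to 50 bases after a transcription start, were given by RefSeq (GRCm38.p6) for 7 of the 8 genes, in 11 windows. Foxp2 had none. Neurod6 and Mef2c are shown because they held the largest tissue differences, in opposite directions, and they had the strongest correlation of any pair of the 8 genes within amygdala. Capitals mark the E-boxes bound by NeuroD factors, CAGATG or its reverse complement and the palindrome CATATG, and the nuclear receptor half-site AGGTCA or its reverse complement.

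Neurod6 window 1, chr6:55681214-55681513 (- strand): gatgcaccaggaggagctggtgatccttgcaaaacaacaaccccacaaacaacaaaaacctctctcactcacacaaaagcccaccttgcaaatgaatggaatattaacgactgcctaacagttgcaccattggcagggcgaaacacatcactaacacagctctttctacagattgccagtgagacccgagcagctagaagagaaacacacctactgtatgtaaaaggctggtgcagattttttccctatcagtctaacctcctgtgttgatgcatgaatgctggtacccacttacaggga
Mef2c window 1, chr13:83503784-83504083 (+ strand): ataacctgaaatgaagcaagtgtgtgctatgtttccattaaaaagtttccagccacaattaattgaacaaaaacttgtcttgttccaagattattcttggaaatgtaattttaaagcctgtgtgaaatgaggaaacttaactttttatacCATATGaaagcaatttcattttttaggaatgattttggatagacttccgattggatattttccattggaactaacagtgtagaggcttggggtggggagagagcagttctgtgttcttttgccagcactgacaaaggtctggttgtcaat
Mef2c window 3, chr13:83573357-83573656 (+ strand): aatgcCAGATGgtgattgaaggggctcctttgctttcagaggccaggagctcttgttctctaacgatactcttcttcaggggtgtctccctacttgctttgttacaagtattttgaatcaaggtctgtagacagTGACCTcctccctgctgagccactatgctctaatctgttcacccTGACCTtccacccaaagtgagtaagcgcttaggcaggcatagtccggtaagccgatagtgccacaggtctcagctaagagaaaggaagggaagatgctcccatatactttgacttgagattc

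The Neurod6 window held none of the motifs searched, on either strand. The first Mef2c window held 1 CATATG at bases 151 to 156 of the window, a motif found in 3.92% of 32841 promoter windows of this length. The third Mef2c window held 1 CAGATG, found in 17.2% of windows, and 2 copies of AGGTCA on the reverse strand, found in 16.3%. Over the 11 windows, CAGATG was in 3 (Mef2c window 3, Cux2 window 2 and Etv1 window 2) and AGGTCA in 2, both of Mef2c. The T-box half-site AGGTGTGA (1.28% of all windows), the MEF2 site (3.19%), the forkhead site TGTTTAC (3.65%) and the ETS site CCGGAAG (8.86%) were in 0 of the 11. These motifs do not overlap one another in sequence where they were found, and a match is a description of letters only.

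The labels were checked against marker genes. Of 9 hippocampal CA field markers, 6 were higher in control hippocampus than in control amygdala by limma and 1 was lower, and of 7 dentate granule cell markers tested, 5 were higher and 1 lower. Of 11 markers of amygdala nuclei, 5 were lower in hippocampus and 1 higher. Ncor1 stood at 81.58 to 137.44 TPM in control hippocampus and at 41.91 to 61.09 TPM in NCoR1-KO. In amygdala it stood at 71.28 to 126.54 TPM in control and at 32.06 to 39 TPM in NCoR1-KO, so neither pair of groups overlapped. Mean Snap25, the gene whose locus carries the Cre cassette, was 55.3% to 59.7% of the control mean in the 4 knockout groups, with no overlap with control. It was not called between the 2 knockouts by limma (adjusted p = 0.978 in hippocampus and 0.568 in amygdala). Every knockout group thus differed from control in Snap25 as well as in the deleted corepressor. In the comparisons with control, the parts of the cassette, of lower Snap25 and of the lost corepressor cannot be told apart. Rn45s, a precursor of ribosomal RNA, was at 18676.79 to 32836.61 TPM in control hippocampus, 10387.64 to 16598.67 TPM in NCoR1-KO and 9526.83 to 15527.51 TPM in SMRT-KO, and in amygdala at 12460.93 to 21508.79, 12283.23 to 14919.95 and 17714.78 to 32645.93 TPM. Its part in the knockout comparisons was not tested. TPM is a level per transcript length, scaled to the total of each library. The 2 tissues are in separate tables, and because the scaling is within a library, levels of the 2 tissues were set side by side with no further adjustment. Sequencing depth is not kept in TPM and is unknown.

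Hippocampus and amygdala held the 8 factors in a different order. In control hippocampus the order of mean TPM per gene was Neurod6, Mef2c, Bcl11b, Etv1, Tbr1, Fezf2, Cux2 and Foxp2. In control amygdala it was Mef2c, Tbr1, Etv1, Bcl11b, Neurod6, Cux2, Fezf2 and Foxp2. Neighbours in hippocampus whose 4 control libraries overlapped were Mef2c and Bcl11b, Bcl11b and Etv1, and Tbr1 and Fezf2. In amygdala only Mef2c stood clear of Tbr1, and Cux2 of Fezf2, while the other 5 neighbouring pairs overlapped. Within a library, Etv1 was above Bcl11b and Neurod6 above Cux2 in 4 of 4 amygdala controls, and Fezf2 above Foxp2 in 3 of 4. The other overlapping pairs of either tissue held their order in 2 of 4 controls.

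**Figure D1:**
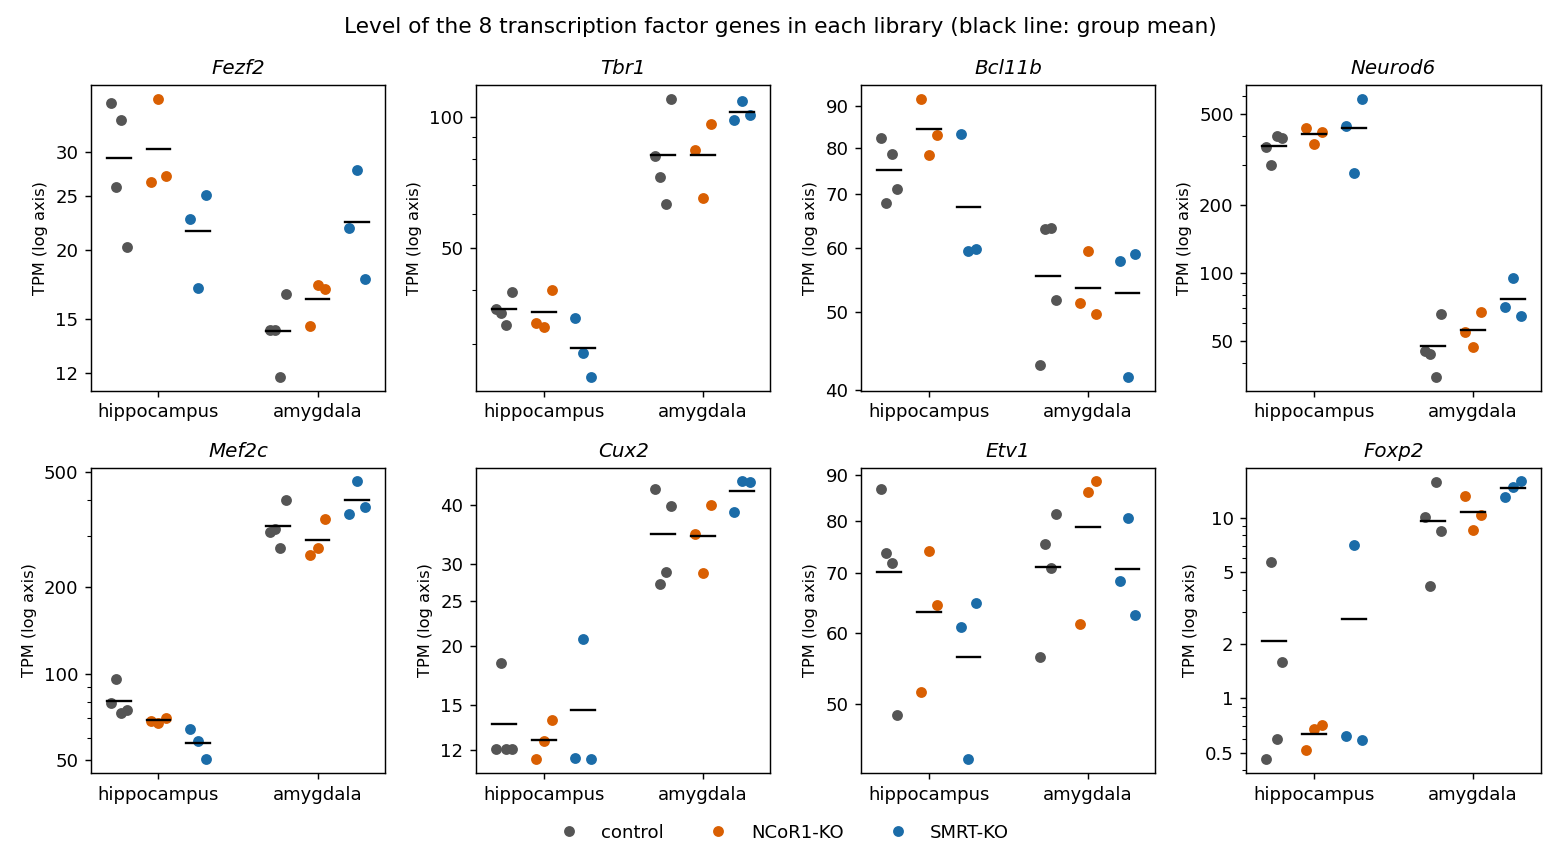
Each panel shows 1 gene and each point 1 library, with TPM on a log axis, tissue on the horizontal axis, genotype by colour and the group mean as a black line. Neurod6 lies between 274.71 and 584.44 TPM in hippocampus and between 34.83 and 95.04 TPM in amygdala. Mef2c shows the opposite placement, and Foxp2 in hippocampus has 2 libraries, control 2 and SMRT-KO 2, above the other 8.

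Of the 8 genes, 7 differed between the tissues in control libraries by limma, 3 higher and 4 lower in hippocampus. Over all 14210 genes tested in both tissues 32.5% passed, 13.2% as higher in hippocampus and 19.3% as lower, so tissue differences were common. Differences are given as log2(TPM + 1) in hippocampus minus amygdala, with the standard error of the fit and a Benjamini-Hochberg adjusted p over those genes. The median of the 8 differences was -0.58, beside -0.03 over all genes. In 6 of the 8 genes the 4 hippocampus and 4 amygdala control libraries did not overlap, beside 32.6% of all genes, and a two-sided exact permutation test of each gave p = 0.0286, the smallest possible with 4 against 4. In these bulk samples, fewer cells of a class and less RNA per cell cannot be told apart.

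Neurod6 had the largest difference in absolute size. Its level was 359.80, 300.16, 399.03 and 393.04 TPM in the hippocampus controls and 45.16, 44.09, 34.83 and 65.71 TPM in the amygdala controls. Every hippocampus library lay far above every amygdala library, and the means differed 7.65-fold. The difference was 2.94 ± 0.21 (adjusted p = 1.96e-08). Within the same gene family, the related factors Neurod1 (0.80 ± 0.16, adjusted p = 0.000905) and Neurod2 (0.90 ± 0.11, adjusted p = 6.8e-06) were also higher in hippocampus.

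Mef2c went the other way. It stood at 78.91, 95.78, 73.11 and 74.84 TPM in the hippocampus controls and at 311.43, 317.01, 272.92 and 401.17 TPM in the amygdala controls. The groups did not overlap, the amygdala mean was 4.04 times that of hippocampus, and the difference was -1.99 ± 0.12 (adjusted p = 3.12e-09). The ratio of Mef2c to Neurod6 within a library ranged from 0.0862 to 0.319 over the 10 hippocampus libraries and from 4.73 to 7.84 over the 10 amygdala libraries, whatever the genotype. Its relative Mef2a, another MEF2 factor of neurons, was higher in hippocampus (0.40 ± 0.08, adjusted p = 0.00137), while Mef2d was not called (-0.12 ± 0.06, adjusted p = 0.163).

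**Figure D2:**
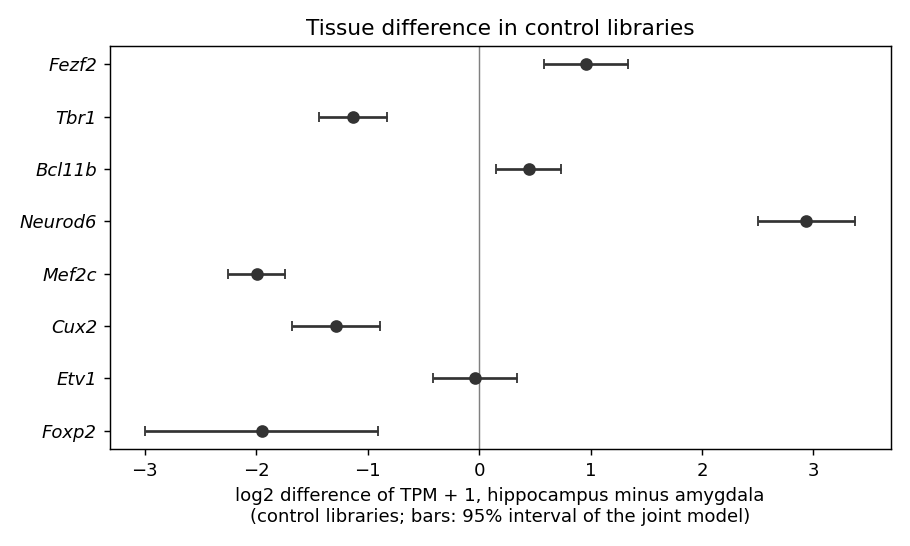
Points give the difference of log2(TPM + 1), hippocampus minus amygdala, in the control libraries of each gene, and bars the 95% interval of the joint fit. Neurod6, Fezf2 and Bcl11b lie to the right of 0, Tbr1, Mef2c, Cux2 and Foxp2 to the left, and the interval of Etv1 spans 0.

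Tbr1 and Cux2 were lower in hippocampus. Tbr1 was at 36.25, 35.40, 33.25 and 39.50 TPM in the hippocampus controls and at 81.26, 72.81, 62.98 and 110.35 TPM in the amygdala controls, without overlap (-1.13 ± 0.14, adjusted p = 1.36e-05). Cux2 was at 12.06, 18.42, 12.06 and 12.09 TPM in the hippocampus controls and at 43.32, 27.21, 28.83 and 39.92 TPM in the amygdala controls, again without overlap (-1.28 ± 0.19, adjusted p = 5.09e-05). Its relative Cux1 was lower in hippocampus too (-0.60 ± 0.16, adjusted p = 0.00653). Over all 10 libraries of a tissue, Neurod6, Mef2c, Tbr1 and Cux2 were the members whose tissues did not overlap.

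The 2 factors of subcerebral neurons were higher in hippocampus. Fezf2 was at 36.81, 25.90, 34.26 and 20.26 TPM in the hippocampus controls and at 14.36, 14.35, 11.81 and 16.68 TPM in the amygdala controls (0.96 ± 0.18, adjusted p = 0.000548). Bcl11b was at 82.16, 68.24, 78.63 and 71.11 TPM in hippocampus and at 42.89, 63.39, 63.58 and 51.73 TPM in amygdala, a 1.35-fold difference of means (0.45 ± 0.14, adjusted p = 0.0191). Neither gene's groups overlapped. The call of Bcl11b was lost without amygdala control 1 (0.33, adjusted p = 0.073) or without hippocampus control 1 (0.40, adjusted p = 0.057). Its relative Bcl11a was also higher in hippocampus (0.61 ± 0.14, adjusted p = 0.00217).

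Etv1 had nearly the same mean in both tissues, 70.2 ± 15.9 TPM (SD, n = 4) in hippocampus and 71.1 ± 10.7 TPM (SD, n = 4) in amygdala. The difference was -0.03 (adjusted p = 0.905), with a 95% interval of -0.41 to 0.34, so a difference of either sign within that range remains possible.

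Foxp2 was the lowest of the 8 genes in both tissues. It stood at 0.46, 5.66, 0.60 and 1.59 TPM in the hippocampus controls and at 10.05, 4.18, 15.70 and 8.43 TPM in the amygdala controls. Hippocampus control 2 lay above amygdala control 2, so the groups overlapped. The difference passed in the limma fit (-1.95 ± 0.50, adjusted p = 0.00563) and not in the two-sided exact permutation test (p = 0.0571). Foxp2 entered the hippocampus fit because 3 libraries (control 2, control 4 and SMRT-KO 2) reached 1 TPM, and without any 1 of the 3 it fell under the minimum and was not tested.

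A pair of hippocampus libraries stood apart in Foxp2 and Cux2, and both also stood apart in markers of neighbouring regions. Foxp2 was at 5.66 TPM in control 2 and 7.09 TPM in SMRT-KO 2, and at 0.46 to 1.59 TPM in the other 8 hippocampus libraries. Cux2 was at 18.42 and 20.78 TPM in the same libraries and at 11.47 to 13.90 TPM in the others. In control 2 the 12 striatal projection neuron markers summed to 459.9 TPM, with 94.64 to 141.25 TPM in the other 9 libraries, and Adora2a, the adenosine receptor of indirect-pathway striatal neurons, was at 19.19 TPM against 1.81 to 2.75 TPM. In SMRT-KO 2 the 9 thalamus markers summed to 687.4 TPM, with 72.59 to 164.76 TPM in the others, and Tcf7l2, a factor of thalamic neurons, was at 124.3 TPM against 8.33 to 11.65 TPM. At most 1 gene of either list was at 0 in any hippocampus library. The part of these markers in the Foxp2 and Cux2 levels was not tested.

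Foxp2 also varied most among libraries of a genotype. Its residual standard deviation in the fit was 0.98 on the log2 scale in hippocampus, larger than that of 99.2% of tested genes, and 0.49 in amygdala, larger than that of 97.9%. The median gene had 0.14 and 0.12. Mef2c and Tbr1 in hippocampus were near the median gene, at 0.15 and 0.16. In amygdala all 8 members lay above at least 83.1% of tested genes.

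**Figure D3:**
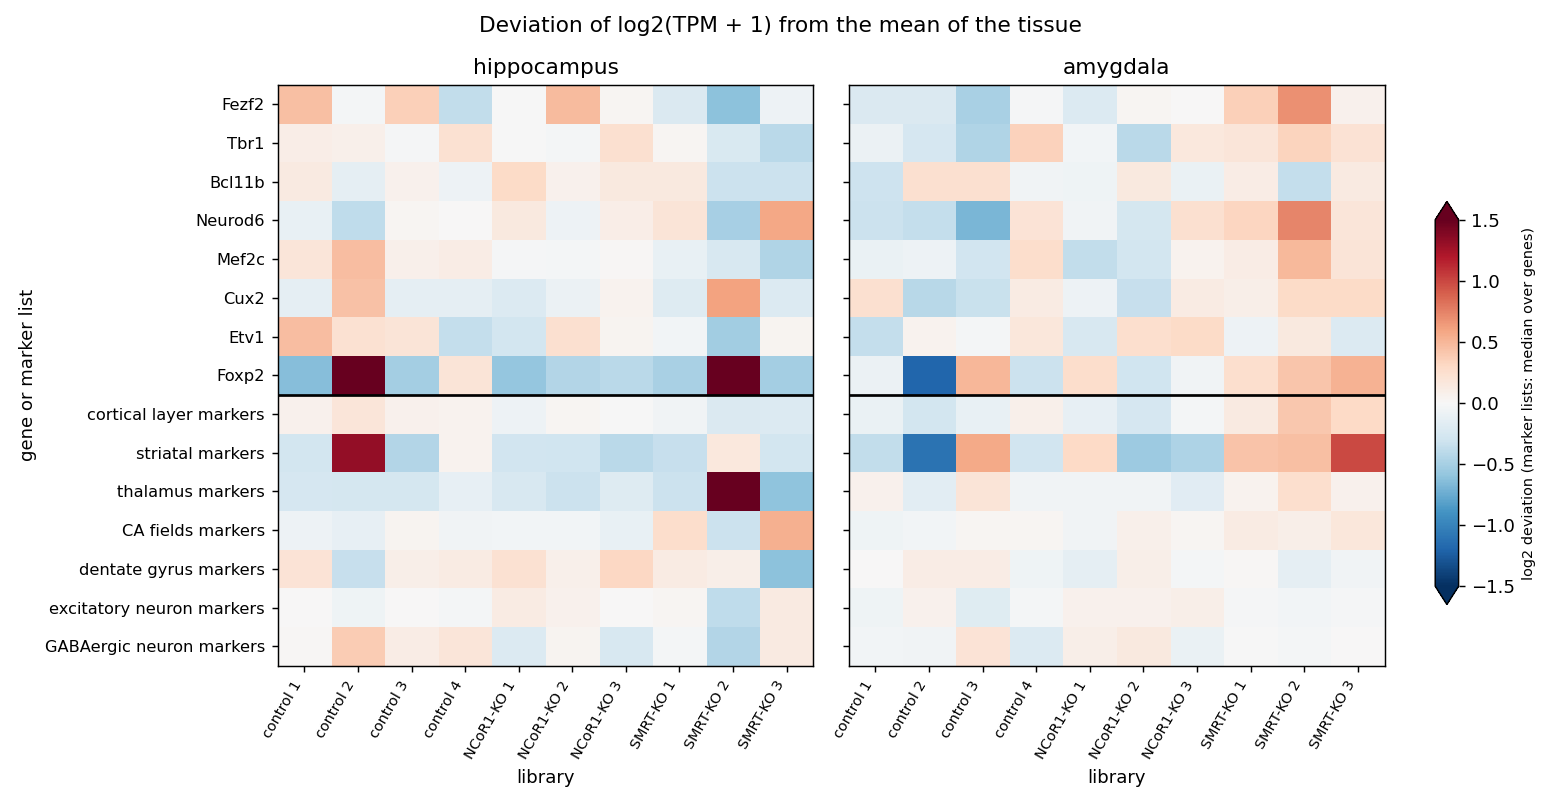
Colour gives the deviation of log2(TPM + 1) from the mean of the tissue in each library, for the 8 genes above the line and for the median of each marker list under it; colours saturate at 1.5. Foxp2 and Cux2 are high in hippocampus control 2, where striatal markers are high, and in hippocampus SMRT-KO 2, where thalamus markers are high. In amygdala, Foxp2 and the striatal list are lowest in control 2.

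The first knockout comparison asks whether loss of NCoR1 in neurons changed the factors in hippocampus. Of the 8, 0 passed in limma, and 0% of all 14501 genes passed (0 genes, beside 658, or 4.54%, at an unadjusted p under 0.05). At that unadjusted level 0 of the 8 members were counted. The median difference of the members was -0.05, beside 0.00 over all genes. Mef2c was the single member whose 3 NCoR1-KO libraries, at 68.63, 67.62 and 70.37 TPM, lay below all 4 control libraries, where 8.09% of all genes did not overlap in either direction. Its difference was -0.22 ± 0.10 (adjusted p = 0.998, two-sided exact permutation p = 0.0857), and -0.13 without control 2 and SMRT-KO 2. The 95% intervals of the others were -0.27 to 0.22 for Tbr1, -0.10 to 0.44 for Bcl11b, -0.30 to 0.64 for Neurod6, -0.41 to 0.54 for Fezf2, -0.56 to 0.39 for Cux2 and -0.59 to 0.33 for Etv1. Foxp2 had the largest difference and the widest interval, -0.62 with -2.05 to 0.80.

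In SMRT-KO hippocampus, 0 of the 8 passed, and again 0% of all genes (0 of 14501, with 813, or 5.61%, at an unadjusted p under 0.05). At that unadjusted level there were 2 of 8 members, Mef2c and Tbr1. Mef2c ranked seventh of all tested genes by p, with 64.24, 58.35 and 50.40 TPM in SMRT-KO. All 3 values lay under the lowest control value of 73.11 TPM, and the SMRT-KO mean was 71.5% of the control mean. The difference was -0.48 ± 0.10 (unadjusted p = 0.000937, adjusted p = 0.779), and the two-sided exact permutation test gave p = 0.0286, the smallest that 3 against 4 libraries allow. Groups that did not overlap were seen in 4.78% of all genes. Without control 2 and SMRT-KO 2 the difference of Mef2c was -0.40 (adjusted p = 0.702), and over the 10 settings that left out 1 library it ranged from -0.56 to -0.38. With array weights it was -0.31 (adjusted p = 0.219). Cortical layer markers lay lower as well. The score of the 12 markers, the median over them of the log2 deviation from their tissue mean, was -0.21 to -0.06 in SMRT-KO and 0.05 to 0.18 in control, without overlap. Of the 12, 10 had values below control (median -0.225) and 0 passed, and their summed level was 424.81 to 888.12 TPM against 562.23 to 786.95 TPM. This was not particular to that list. Below control lay 11 of 12 striatal (median -0.352), 10 of 11 GABAergic neuron (-0.298) and 7 of 8 dentate markers (-0.231). Above control lay 10 of 10 oligodendrocyte and 7 of 8 thalamus markers. Over the 10 hippocampus libraries, group means removed, Mef2c had r = 0.62 with the cortical layer score and 0.707 with the striatal score. The part of these markers in its level was not tested.

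Tbr1 in SMRT-KO hippocampus was at 34.49, 28.61 and 25.23 TPM, with 2 of 3 libraries under all 4 controls. Its difference was -0.29 ± 0.11, with a 95% interval of -0.54 to -0.05 (unadjusted p = 0.024, adjusted p = 0.779). Fezf2 differed by -0.40 ± 0.21, Etv1 by -0.30 ± 0.21 and Bcl11b by -0.16 ± 0.12, with adjusted p of 0.779, 0.791 and 0.799. Neurod6 was at 444.84, 274.71 and 584.44 TPM, so 1 library lay below and 2 above all controls (0.20 ± 0.21, adjusted p = 0.859). Cux2 (0.06) and Foxp2 (0.13) had intervals of -0.41 to 0.53 and -1.29 to 1.55. The lowest Neurod6 value is that of SMRT-KO 2, the library with high thalamus markers. The highest is that of SMRT-KO 3, in which CA field markers summed to 1016.7 TPM, against 707.43 to 956.63 TPM in the other 9 libraries, and dentate granule cell markers to 240.48 TPM, against 355 to 471.62 TPM. The part of these markers in the Neurod6 level was not tested.

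In amygdala, loss of NCoR1 left 0 of the 8 members past the threshold, where 0.411% of 14606 genes passed (60 genes). At an unadjusted p under 0.05 there were 0 of 8 members and 13.1% of all genes. Groups overlapped for all 8 members, while 12.1% of all genes had groups that did not. The largest differences were 0.26 ± 0.20 for Neurod6 (adjusted p = 0.606), 0.24 ± 0.31 for Foxp2 (adjusted p = 0.775) and 0.18 ± 0.14 for Fezf2 (adjusted p = 0.619). Tbr1 had the same mean in both groups to within the spread, 81.8 ± 15.8 TPM (SD, n = 3) and 81.9 ± 20.4 TPM (SD, n = 4), and its 95% interval was -0.37 to 0.39. Mef2c differed by -0.15 with an interval of -0.46 to 0.15, and Bcl11b (-0.04), Cux2 (0.00) and Etv1 (0.14) had intervals of -0.38 to 0.30, -0.36 to 0.36 and -0.19 to 0.47.

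SMRT-KO amygdala also had 0 of 8 members past the threshold, beside 0.11% of 14606 genes (16 genes). At an unadjusted p under 0.05 there were 3 of 8 members (Fezf2, Neurod6 and Mef2c) and 22% of all genes. For 6 members the difference was above 0, and the median difference of the 8 was 0.34, beside -0.03 over all genes. Fezf2 was at 21.85, 27.81 and 17.70 TPM in SMRT-KO, above the highest control value of 16.68 TPM. It was the single member whose groups did not overlap, beside 18% of all genes. The difference was 0.60 ± 0.14 (unadjusted p = 0.00165, adjusted p = 0.0662, two-sided exact permutation p = 0.0286), and leaving out 1 library at a time gave adjusted p from 0.0621 to 0.267. With array weights the difference was 0.39 (adjusted p = 0.0931).

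Neurod6 was at 70.92, 95.04 and 64.44 TPM in SMRT-KO amygdala, and 2 of these 3 libraries lay above all 4 controls. Its difference was 0.70 ± 0.20 (unadjusted p = 0.00512, adjusted p = 0.0931, two-sided exact permutation p = 0.0857). Mef2c was at 359.67, 465.39 and 380.30 TPM, with 1 library above all controls (0.31 ± 0.14, 95% interval 0.0024 to 0.61, adjusted p = 0.225). Tbr1 was at 98.65, 109.21 and 101.16 TPM (0.36 ± 0.17, adjusted p = 0.253), Foxp2 at 13.04, 14.73 and 15.88 TPM (0.67 ± 0.31, adjusted p = 0.232) and Cux2 at 38.77, 45.00 and 44.97 TPM (0.32 ± 0.16, adjusted p = 0.282). In each of these 3 genes amygdala control libraries reached into the SMRT-KO range. Bcl11b (-0.07 ± 0.15) and Etv1 (-0.00 ± 0.15) had intervals from -0.41 to 0.27 and from -0.33 to 0.33.

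Markers of other cells and regions moved with the SMRT-KO amygdala libraries. Scores of the 12 cortical layer markers, members excluded, were 0.13 to 0.41 in SMRT-KO and -0.28 to 0.07 in control, and 9 of the 12 genes had values above control. The summed levels were 625.65 to 746.85 TPM and 581.47 to 643.89 TPM. Scores of the 12 striatal markers were 0.43 to 0.99 against -1.10 to 0.57, with 12 of 12 above control and sums of 1096.4 to 1710.9 TPM against 411.53 to 1263.7 TPM. The 10 oligodendrocyte markers scored 0.42 to 1.01 against -1.18 to 0.65, with 10 of 10 above control and sums of 8158.7 to 12303 TPM against 2713.3 to 9659.2 TPM. Markers of amygdala nuclei lay lower, with 9 of 11 below control, 4 of them at an unadjusted p under 0.05 and 0 past the threshold. Their sums were 726.95, 431.92 and 591.45 TPM in SMRT-KO and 711.67 to 816 TPM in control. All 7 tested dentate granule cell markers were below control as well. Over the 10 amygdala libraries, group means removed, r with the amygdala nuclei score was -0.893 for Neurod6, -0.897 for Mef2c, -0.772 for Tbr1, -0.748 for Fezf2 and 0.757 for Bcl11b. With the score of the GABAergic neuron markers, r was -0.89 for Neurod6, -0.909 for Mef2c, -0.852 for Tbr1, -0.677 for Fezf2 and 0.512 for Bcl11b. Of these 11 markers, 6 lay above control and 5 below in SMRT-KO amygdala. Lamp5, a marker of superficial cortical layers, was at 131.97, 274.12 and 173.57 TPM in SMRT-KO and at 99.01 to 131.27 TPM in control. The highest Lamp5 value was that of SMRT-KO 2. The same library had the highest Fezf2, Neurod6, Mef2c, Tbr1, Cux2 and Etv1 of its group and the lowest Bcl11b. None of these marker genes passed in limma, and no marker of the striatal or amygdala list was at 0 in amygdala. The part of these markers in the levels of the 8 factors was not tested.

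**Figure D4:**
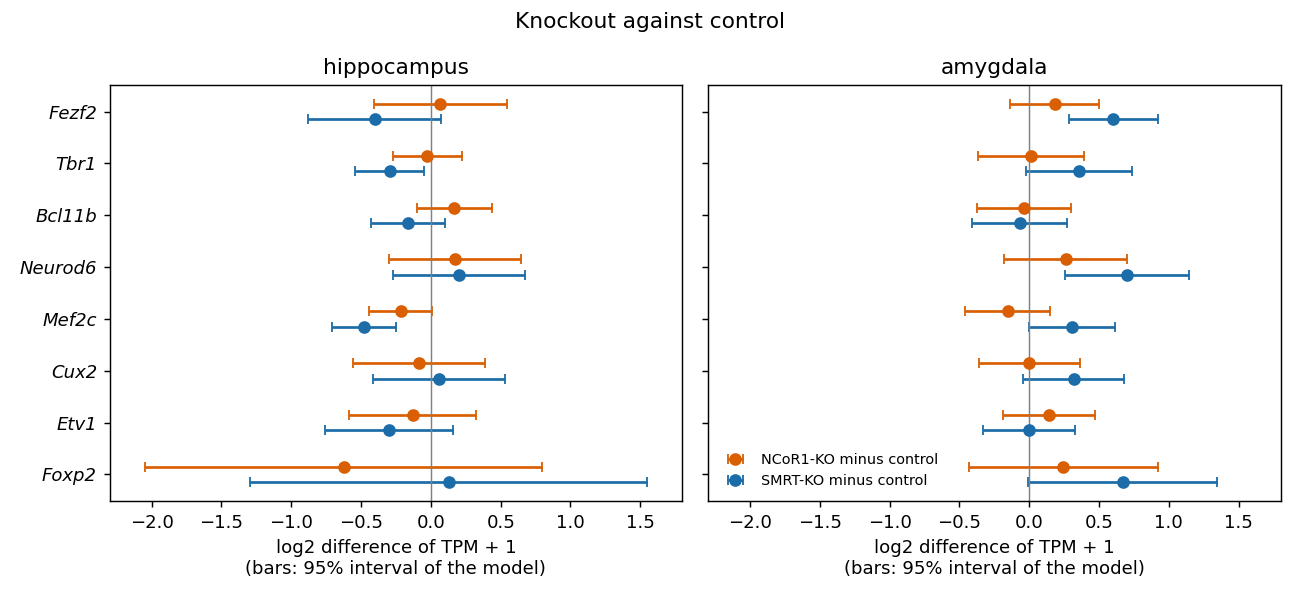
Points give the difference of log2(TPM + 1) from control for NCoR1-KO and SMRT-KO in each tissue, and bars the 95% interval of the fit; both knockouts share the same 4 controls. In SMRT-KO, the intervals of Mef2c and Tbr1 lie below 0 in hippocampus and those of Fezf2, Neurod6 and, narrowly, Mef2c lie above 0 in amygdala, although no member passed after adjustment over all genes.

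The knockouts were also compared with each other, which does not use the shared controls as a reference. In hippocampus 0 of 8 members passed, with 0% of all genes called (0 of 14501, with 956, or 6.59%, at an unadjusted p under 0.05, among them 3 of the 8: Bcl11b, Mef2c and Tbr1). Levels of Fezf2 (0.47 ± 0.23, adjusted p = 0.764) and Mef2c (0.26 ± 0.11, adjusted p = 0.754) were higher in all NCoR1-KO than in all SMRT-KO libraries, 2 of 8 members with groups that did not overlap, beside 11.4% of all genes. In amygdala 0 of 8 passed, while 11.5% of 14606 genes did. Mef2c (-0.46 ± 0.15, adjusted p = 0.0656), Fezf2 (-0.42 ± 0.15, adjusted p = 0.0972) and Tbr1 (-0.35 ± 0.18, adjusted p = 0.226) were lower in all 3 NCoR1-KO libraries than in all 3 SMRT-KO libraries, so 3 of 8 members had groups that did not overlap, beside 38.4% of all genes. The two-sided exact permutation p was 0.1 for each of these 5 differences, the smallest that 3 against 3 allow. Mef2c passed in amygdala when control 4 was left out (-0.46, adjusted p = 0.0445) or NCoR1-KO 3 (-0.58, adjusted p = 0.0489), and under quantile normalization or array weights.

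Whether a knockout's effect differed between tissues was tested with all 20 libraries in 1 fit, as the effect in hippocampus minus the effect in amygdala. For NCoR1-KO 0 of 8 members and 0% of 14210 genes passed (0 genes, with 522, or 3.67%, at an unadjusted p under 0.05). For SMRT-KO 0 of 8 and again 0% passed (0 genes, with 1257, or 8.85%, at an unadjusted p under 0.05). All 8 SMRT-KO values lay below 0, with a median of -0.52 beside 0.02 over all genes. Those of Fezf2 (-1.01 ± 0.27, unadjusted p = 0.00191, adjusted p = 0.331), Mef2c (-0.78 ± 0.18, unadjusted p = 0.000544, adjusted p = 0.265) and Tbr1 (-0.65 ± 0.22, unadjusted p = 0.00881, adjusted p = 0.422) had intervals that lay below 0. This direction was not particular to the members. Below 0 lay 12 of 12 striatal (median -1.47), 10 of 10 oligodendrocyte, 11 of 12 cortical layer and 10 of 11 GABAergic neuron markers. So did 18 of 21 other projection neuron transcription factors, while 8 of 8 thalamus markers lay above 0. The part of these markers was not tested. Seen as levels, the amygdala mean of Mef2c was 4.04 times the hippocampus mean in control, 4.24 times in NCoR1-KO and 6.97 times in SMRT-KO. For Tbr1 the ratios were 2.27, 2.30 and 3.50. Fezf2 in hippocampus was 2.05, 1.86 and 0.963 times its level in amygdala, and its 2 tissues overlapped in SMRT-KO alone.

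Genes of the same pathways were set beside all 14210 genes, of which 32.5% passed between the control tissues, 13.2% as higher in hippocampus and 19.3% as lower. Of 10 relatives of the members tested in both tissues, 4 were higher in control hippocampus and 1 (Cux1) lower. Of 21 other projection neuron transcription factors, 8 were higher in hippocampus and 6 lower. Prox1 and Lmo3, named next, are also in the dentate granule cell and amygdala nuclei lists used to check the labels. Zbtb20, a zinc finger factor of hippocampal neurons, differed by 2.17 ± 0.08 (adjusted p = 3.18e-11), Prox1, the factor of dentate granule cells, by 2.82 ± 0.28 (adjusted p = 1.03e-06), Lmo3, a LIM-domain regulator, by -0.83 ± 0.12 (adjusted p = 6.52e-05) and Id2, an inhibitor of helix-loop-helix factors, by -0.83 ± 0.12 (adjusted p = 3.68e-05). Of 9 cofactors, 3 were higher and 2 lower, among them the corepressor Tle1 (0.64 ± 0.08, adjusted p = 1.13e-05) and the scaffold Cask, a partner of Tbr1 (-0.26 ± 0.07, adjusted p = 0.00725). Of 13 genes reported as targets of the members, 2 were higher (Bdnf and Ephb1) and 2 lower (Reln and Pcdh10), near the share over all genes. Reln, the layer-organising glycoprotein controlled by Tbr1, differed by -0.97 ± 0.22 (adjusted p = 0.00262).

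In 5 of the 6 comparisons of genotypes within a tissue, 0 of the relatives, other factors and cofactors passed. Among the reported targets, Grin2b, an NMDA receptor subunit and a Tbr1 target, fell in NCoR1-KO amygdala (-1.17 ± 0.18, adjusted p = 0.0291), from 42.24 to 77.89 TPM in the 4 controls to 24.14 to 28.11 TPM in the 3 NCoR1-KO libraries. This call held in 4 of the 10 settings that left out 1 library, with adjusted p from 0.00636 to 0.167, and was lost without control 1 (0.0994), control 3 (0.059), NCoR1-KO 1 (0.167), NCoR1-KO 2 (0.115), NCoR1-KO 3 (0.0597) or SMRT-KO 3 (0.067), with values from -1.33 to -1.04. The exception was NCoR1-KO against SMRT-KO in amygdala, where 11.5% of all genes passed. There 2 of 11 relatives were lower in NCoR1-KO, Foxp1 (-1.08 ± 0.22, adjusted p = 0.0176) and Cux1 (-0.43 ± 0.10, adjusted p = 0.026). Foxp1, a forkhead partner of Foxp2 that is abundant in striatal neurons, had 32.9 ± 4.68 TPM (SD, n = 3) in NCoR1-KO, 70.6 ± 11.5 TPM (SD, n = 3) in SMRT-KO and 36.8 ± 9.74 TPM (SD, n = 4) in control. Of 21 other factors, 5 were lower (Satb1, Zbtb18, Pou3f2, Pou3f3 and Rorb), and 1 of 9 cofactors was, Tle4 (-0.42 ± 0.09, adjusted p = 0.0227). Of 13 targets 1 was higher (Ntng1) and 3 lower, with Grin2b at -1.68 ± 0.20 (adjusted p = 0.00206). The Grin2b call held in all 10 settings that left out 1 library, that of Foxp1 in 7, those of Cux1, Tle4, Pou3f3 and Homer1 in 6, those of Satb1, Pou3f2, Rorb and Ephb1 in 5, that of Zbtb18 in 4 and that of Ntng1 in 2. Marker lists of other cells and of cortical layers differed between the same libraries. Of 8 microglia markers 7 passed as lower in NCoR1-KO, with sums of 470.94 to 509.89 TPM against 627.14 to 684.14 TPM. Of 10 oligodendrocyte markers 10 lay lower and 1 passed (median -1.10), of 8 astrocyte markers 2 passed as lower and of 8 vascular markers 2. All 12 striatal markers lay lower with 0 passing. Of 12 cortical layer markers 5 passed as lower and 1 as higher. Rorb and Tle4, already counted above, are among these 5. The part of these markers in the counts was not tested.

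Within a genotype, members varied together in patterns that differed by tissue. Correlations here are Pearson's r over the 10 libraries of a tissue after the genotype means were removed; the libraries share composition and TPM scaling, and the values are descriptions. In amygdala r was 0.922 for Neurod6 with Mef2c, 0.91 for Tbr1 with Neurod6, 0.812 for Tbr1 with Mef2c and 0.779 for Fezf2 with Neurod6. In hippocampus it was 0.955 for Cux2 with Foxp2, 0.897 for Fezf2 with Etv1, -0.875 for Neurod6 with Cux2 and -0.837 for Neurod6 with Foxp2. The hippocampal values of Cux2 and Foxp2 include the libraries control 2 and SMRT-KO 2 described above. Against the marker scores, Neurod6 had r = 0.942 with CA field markers in hippocampus, Tbr1 r = 0.864 with cortical layer markers in amygdala, and Foxp2 r = 0.91 with striatal markers in amygdala. The Neurod6 values of hippocampus include SMRT-KO 2 (274.71 TPM) and SMRT-KO 3 (584.44 TPM), its lowest and highest libraries there.

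For each member, the genes with the most similar pattern were the 3 of 13164 candidates with the highest mean r over the 2 tissues, 10 libraries in each. For Fezf2 they were Ccdc149 (mean r 0.908), Vip (0.863) and Fam81a (0.86), and for Tbr1 they were Tmco4 (0.862), Ankrd45 (0.858) and Ldlrad4 (0.849). Bcl11b was nearest to Prr7 (0.883), Cacna1h (0.859) and the helix-loop-helix factor Bhlhe22 (0.847). Neurod6 was nearest to Ndrg3 (0.929), the calcium channel gene Cacna1a (0.915) and Acsl5 (0.911). Mef2c was nearest to Ipcef1 (0.928), Sept11 (0.864) and Glcci1 (0.841), and Cux2 to Spdya (0.90), Rai14 (0.874) and Ankrd34c (0.854). Etv1 was nearest to Gramd1b (0.892), Kif3b (0.88) and Cadps2 (0.874). Foxp2 was nearest to the homeobox factor Six3 (0.946), the opioid precursor Pdyn (0.92) and Elmo1 (0.903). Six3 is 1 of the 12 striatal markers, and it too was highest in hippocampus control 2 (4.96 TPM) and SMRT-KO 2 (6.2 TPM), with 0.09 to 2.57 TPM in the other hippocampus libraries.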

How the data were processed

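Gene-level TPM values (a level per transcript length, scaled within each library) of 10 hippocampus and 10 amygdala libraries were used as the authors deposited them. The submitters' processing notes name bcl2fastq, fastp 0.21.0, STAR 2.5.3a, RSEM 1.3.3 and mm10, with no role or order. RNA came from a lipid tissue RNeasy kit and libraries from a stranded TruSeq mRNA kit, per the labels' protocols. The sources used here do not give the annotation used for counting, and depth is unknown.

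In R 4.3.3, limma 3.58.1 was fitted to log2(TPM + 1) with trended moderated variances, for genes of at least 1 TPM in at least 3 of the 10 libraries of a tissue. This scale understates changes of low genes. The 3 genotypes of a tissue shared a fit. Tissue differences and knockout-by-tissue differences came from a joint fit of all 20 libraries, taken as unpaired. P-values were adjusted by Benjamini-Hochberg over all tested genes (threshold 0.05), and single genes were also tested by two-sided exact permutation. Scripts were checked on simulated data. The 8 members are named in every comparison, Ncor1 and Snap25 check the labels, 3 genes of most similar pattern are named per member, and up to 4 genes of smallest p may be named from a list; list genes shown beyond that were chosen after their values were seen. Members and the 17 other gene lists, written from general knowledge, were chosen with earlier results of these data known. Alternatives were pseudocount, filter, normalization, weights, groups fitted, replicate block and omitted libraries. The level of the gene deleted in SMRT-KO is not reported here.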

Additional observations from a re-analysis of the deposited data

Results flagged for a closer look

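Of 20 sets of 4 control libraries examined, 2 held a library far from the rest by Dixon's criterion, and chance alone gives about 1 in 20. Cux2 was at 18.42 TPM in hippocampus control 2, where the other 3 controls lay between 12.06 and 12.09 TPM, a gap of 0.995 of the range. Striatal markers were high in the same library, and their part was not tested. Ncor1 was at 71.28 TPM in amygdala control 1, where the other 3 lay between 117.39 and 126.54 TPM, a gap of 0.834 of the range.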

How the results depend on the processing

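The number of members past the threshold stayed at 0 under every alternative run for the knockout comparisons, except in 4 for NCoR1-KO against SMRT-KO in amygdala. There it went from 0 to 1 (Mef2c): under quantile normalization (-0.51, adjusted p = 0.0441), under array weights (-0.38, adjusted p = 0.0307), and without control 4 or NCoR1-KO 3. Over all alternatives its adjusted p ranged from 0.0307 to 0.216. In the tissue comparison it was 7 or, in 7 settings, 6: in 2 the call of Bcl11b was lost, as given above, and in 5 Foxp2 was not tested. These 5 were the filter on a mean of at least 5 TPM and the omission of hippocampus control 2, control 4, SMRT-KO 2, or control 2 and SMRT-KO 2 together. The Foxp2 tissue difference was -2.65 with a pseudocount of 0.1. Sequencing depth is unknown, so no counting error can be given.

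Counts over all genes moved more. In amygdala, NCoR1-KO called 60 genes, but 16 with no filter, 4 with only the compared groups fitted, 0 without NCoR1-KO 2 and 126 without control 2. SMRT-KO called 16, but 2 with no filter, 143 with a mean of at least 5 TPM, 2 with only the compared groups, 1546 with array weights, 0 without SMRT-KO 3 and 697 without SMRT-KO 1. NCoR1-KO against SMRT-KO called 1679, but 5047 with array weights and 246 without SMRT-KO 3. In hippocampus the counts of 0 became 1 for each knockout under quantile normalization or array weights, 1 for NCoR1-KO and 5 for NCoR1-KO against SMRT-KO with only the compared groups, and 47 for the latter with array weights and 1 without control 2 and SMRT-KO 2. The SMRT-KO effect between tissues called 18 without hippocampus SMRT-KO 1.

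Deviations of same-numbered libraries had correlations of -0.49 to 0.499 between genotypes. Between tissues they were 0.000814 to 0.48, and 8 of 10 libraries correlated best with their own number. The 2 tissues of a number may therefore come from the same animal, which the labels do not state. For want of such a label, the main fits and the permutation tests took the libraries as unpaired. The replicate block took a different form in each kind of fit. Within a tissue it was a fixed term for the replicate number, which gave the same differences as leaving out control 4. In the joint fit it was a correlation of 0.185 between same-numbered libraries of the 2 tissues. With the block, members past the threshold stayed at 0 and 7. All-gene counts in amygdala were 41, 4 and 854 for NCoR1-KO, SMRT-KO and NCoR1-KO against SMRT-KO. The tissue comparison called 5393 genes, against 4621 in the main fit.

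Counting each member in each comparison and setting, the direction of the difference changed in 73 values. Direction and call stayed the same in 1331. The 73 were all for differences that did not pass, and the cause was not tested. With the replicate block these were Fezf2 (-0.092) and Tbr1 (0.018) in hippocampus NCoR1-KO and Etv1 (0.066) in amygdala SMRT-KO. With array weights they were Fezf2 in hippocampus NCoR1-KO (-0.018), Bcl11b, Cux2 and Foxp2 in hippocampus SMRT-KO (0.080, -0.12 and -0.33), Tbr1 and Cux2 in amygdala NCoR1-KO (-0.060 and -0.038) and Bcl11b in amygdala SMRT-KO (0.054). For NCoR1-KO against SMRT-KO they were Cux2 and Etv1 in hippocampus (0.043 and -0.00034) and Bcl11b in amygdala (-0.068). Without hippocampus control 2 and SMRT-KO 2, a setting chosen after seeing the data, they were Cux2 in NCoR1-KO (0.059), in SMRT-KO (-0.064) and between the knockouts (0.12), Etv1 between the knockouts (-0.0032), and Mef2c (0.020) and Cux2 (0.058) in the NCoR1-KO effect between tissues.

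Leaving out 1 library at a time also moved small differences across 0. In hippocampus NCoR1-KO the ranges were -0.15 to 0.059 for Cux2, -0.30 to 0.0078 for Etv1, -0.092 to 0.18 for Fezf2 and -0.11 to 0.026 for Tbr1. In hippocampus SMRT-KO they were -0.21 to 0.20 for Cux2, -0.14 to 0.52 for Foxp2 and -0.045 to 0.50 for Neurod6. Between the knockouts in hippocampus they were -0.28 to 0.12 for Cux2, -0.0032 to 0.31 for Etv1 and -0.33 to 0.22 for Neurod6. In amygdala NCoR1-KO they were -0.15 to 0.035 for Bcl11b, -0.11 to 0.12 for Cux2, -0.060 to 0.50 for Foxp2 and -0.11 to 0.17 for Tbr1. In amygdala SMRT-KO they were -0.18 to 0.093 for Bcl11b and -0.11 to 0.076 for Etv1, and between the knockouts -0.13 to 0.12 for Bcl11b. The tissue difference of Etv1 ranged from -0.14 to 0.13. For the NCoR1-KO effect between tissues the ranges were -0.21 to 0.058 for Cux2, -0.27 to 0.0021 for Fezf2, -0.17 to 0.059 for Mef2c, -0.26 to 0.041 for Neurod6 and -0.19 to 0.089 for Tbr1, and for the SMRT-KO effect -0.26 to 0.020 for Bcl11b.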
